A study of Homo sapiens with 6 samples.

Results

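GFI1 and GFI1B are 2 of the 27722 genes to which the deposited transcripts of MUTZ3 could be assigned. Both were selected on the difference studied here, because GFI1 was lower and GFI1B higher with a PLDLS peptide than with its PLASS counterpart. Their differences between peptide groups are therefore given as a description with no test.

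MUTZ3 is a human acute myelomonocytic leukaemia line with an inversion of chromosome 3 that leads to expression of EVI1, a product of MECOM. Per the labels, cells were collected 72 h after retroviral transduction, in medium with serum and conditioned medium of 5637 cells. The PLDLS group carried p50MX-3xFLAG-3xNLS-4xPLDLS-Zeo, whose peptide is stated to block the contact of EVI1 with CTBP corepressors. The PLASS group carried p50MX-3xFLAG-3xNLS-4xPLASS-Zeo, whose peptide is stated to lack this effect. The empty vector (EV) group held p50MX-3xFLAG in replicate 1 and p50MX-Zeo in replicate 2, so its libraries differ in vector as well as in replicate number. All libraries come from 1 cell line, and each group had 2 of them, written below as PLDLS 1, PLDLS 2 and so on. The deposited names give experiment numbers that match the replicate numbers, but no label states separate cultures for the replicates. A p-value here therefore reflects the spread among these 6 libraries, part of which may be technical.

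GFI1 and GFI1B are paralogous zinc finger repressors of blood cells. Each binds DNA through its zinc fingers at sites with an AATC core, and each recruits the histone demethylase LSD1 (KDM1A) with the scaffold RCOR1 through a short SNAG domain at its start. GFI1 is known for its role in granulocyte formation and in stem cell quiescence, and GFI1B for its role in red cell and platelet formation. The proteins are also known to repress their own genes and each other's.

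GFI1 lies on the minus strand at chr1:92473043-92486925 and GFI1B on the plus strand at chr9:132945531-132993434 (GRCh38). The deposited tables held 3 transcripts of GFI1, which differ in the first exon, and 2 of GFI1B. The long GFI1B transcript starts at the distal promoter and has the exon at chr9:132989061-132989198, the ninth exon of its model. The short one starts at the proximal promoter and skips that exon, and its product is known as the form without the N-terminal pair of zinc fingers. The skipped exon is shown because it separates both transcripts in the estimates below. It has 138 bases, or 46 codons, so that leaving it out keeps the reading frame. It is given on the plus strand from the GENCODE transcript.
GFI1B skipped exon: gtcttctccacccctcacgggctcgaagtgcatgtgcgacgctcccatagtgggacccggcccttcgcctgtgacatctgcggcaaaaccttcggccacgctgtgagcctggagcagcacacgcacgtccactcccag

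Start site regions are shown because both genes are known targets of their own products. RefSeq (GRCh38.p14) gave 3 start windows for GFI1 and 2 for GFI1B, each of 300 bases from 250 before to 50 after the start. They were searched for AATC and its reverse complement GATT. From each window 1 stretch of 30 bases, chosen because it holds the most matches, is printed 5′ to 3′ on the gene's strand, with these letters in capitals. The stretches lie at chr1:92487138-92487167, chr1:92486050-92486079 and chr1:92483886-92483915 for GFI1, and at chr9:132945349-132945378 and chr9:132978645-132978674 for GFI1B.
GFI1 upstream start: tcatgaaacatagAATCcgagcgaagaagg
GFI1 middle start: ctctcccgaaagcaaGATTccgtttgaaaa
GFI1 downstream start: ctccagggagtttGATTgccggagcgagct
GFI1B distal start: gagacagcttgaaAATCagaacgccttatt
GFI1B proximal start: cacaaatAATCaGATTgaaAATCagggagg

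The proximal GFI1B window held 4 matches, 3 of them within the printed stretch, whose first base lies 49 bases before the start. The distal GFI1B window held 2 matches, and each GFI1 window held 1. Of 35116 RefSeq start windows of this length, 69.0% held at least 1 match and 9.95% held at least 4. GATA or its reverse complement TATC, the core read by GATA factors, had 2 matches in the proximal GFI1B window, 1 in the distal one and 1 at the middle start of GFI1. The other two GFI1 windows held none, and 49.7% of all windows had at least 1. These letters show no binding, which was not measured in these libraries.

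The libraries held from 5582078 estimated reads in PLDLS 2 to 35800826 in EV 1, so values of PLDLS 2 are the least precise. The line was checked against markers fixed for it. All 10 myelomonocytic leukaemia markers had reads in every library, and together they made up 1207 to 1830 TPM (a level per transcript length) in EV, 1423 and 1639 TPM in PLASS and 1460 and 1740 TPM in PLDLS. CD34 held the largest part of this sum, 515 to 904 TPM, while CD14 was at only 1.29 to 4.13 TPM. Markers of T cells, B cells, fibroblasts, epithelial and red cells numbered 15. Their sum was 15.9 and 32.5 TPM in EV, 19.6 and 26.2 TPM in PLASS and 19.3 and 30.9 TPM in PLDLS. MS4A1, COL3A1 and HBB among them were at 0 in every library, and CD79A had the highest single level, 16.2 TPM. CD79A was at 7.32 TPM or more, and above CD14, in every library. None of the 5 tested members was called in PLDLS vs PLASS or PLDLS vs EV by edgeR. With the replicate block 1 had an unadjusted p under 0.05 in each, beside 1684 and 2327 of all 14631 tested genes.

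GFI1 was lowest in both PLDLS libraries. Its scaled read counts (CPM, with TMM scaling) were 43.4 and 42.3 in PLDLS, 85.3 and 104 in PLASS and 103 and 66.6 in EV, for replicates 1 and 2. Group means were 42.8 ± 0.751 in PLDLS, 94.6 ± 13.2 in PLASS and 84.6 ± 25.5 CPM in EV (SD, n = 2). Neither PLDLS value reached the range of the other groups, while PLASS and EV overlapped. These levels rest on 724 and 228 estimated reads in PLDLS, 1774 and 1281 in PLASS and 3900 and 1205 in EV. In bulk RNA, fewer cells with a transcript and less of it per cell cannot be told apart. The PLDLS vs PLASS difference was -1.14 ± 0.25 on the log2 scale (edgeR, ± SE), or 2.21-fold lower. Within replicate number 1 it was -0.97 and within number 2 it was -1.29.

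GFI1B showed the opposite order. Its level was 118 and 90.4 CPM in PLDLS, 50.2 and 17.5 CPM in PLASS and 48.8 and 25.3 CPM in EV. Group means were 104 ± 19.5 in PLDLS, 33.8 ± 23.2 in PLASS and 37.1 ± 16.6 CPM in EV (SD, n = 2). Both PLDLS libraries lay above the other 4, and PLASS and EV overlapped again. The estimated reads were 1969 and 487 in PLDLS, 1044 and 215 in PLASS and 1852 and 459 in EV. The PLDLS vs PLASS difference was 1.62 ± 0.49 on the log2 scale, or 3.07-fold higher, with 1.23 in number 1 and 2.37 in number 2. Without PLASS 1 it was 2.58, and without PLASS 2 it was 1.05.

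**Figure D1:**
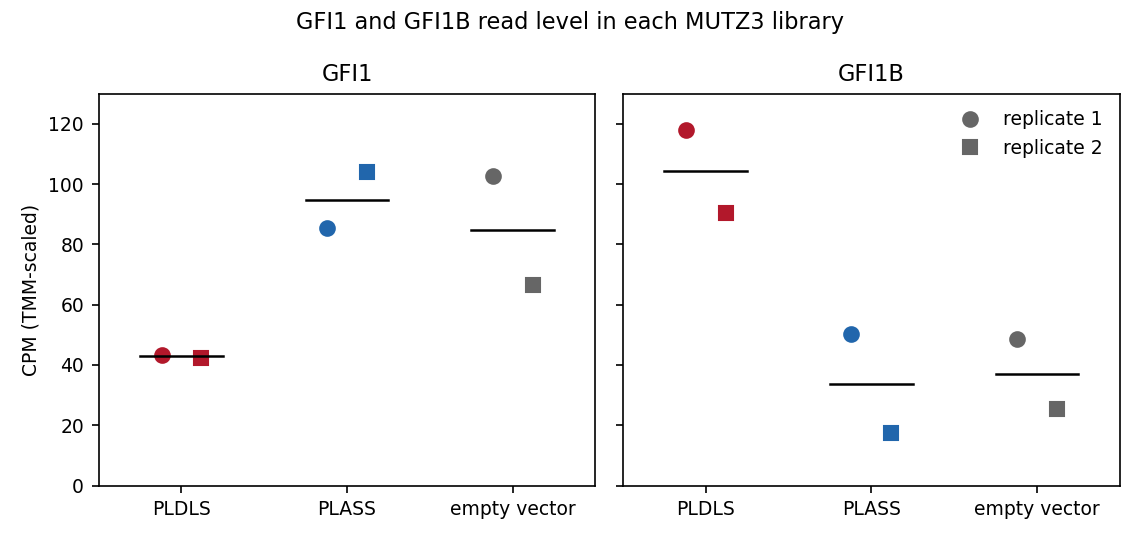
CPM (TMM-scaled, vertical axis) of GFI1 (left) and GFI1B (right) in each library of the 3 groups, with circles for replicate 1, squares for replicate 2 and black lines for group means. GFI1 in PLDLS sits near 43 CPM below all other libraries, and GFI1B in PLDLS sits at 90.4 and 118 CPM above all others.

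Against EV the values took the same order, with PLDLS libraries in both comparisons. GFI1 differed by -0.98 ± 0.25 (log2, edgeR), with -1.24 in number 1 and -0.65 in number 2. GFI1B differed by 1.49 ± 0.49, with 1.27 and 1.83. PLASS vs EV gave 0.16 ± 0.24 for GFI1, where number 1 (-0.27) and number 2 (0.64) had opposite signs. It gave -0.13 ± 0.48 for GFI1B, with 0.04 in number 1 and -0.54 in number 2. Both PLASS vs EV differences were smaller than their standard errors.

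With the replicate number as a block, the PLDLS vs PLASS difference was -1.15 ± 0.21 for GFI1 and 1.76 ± 0.24 for GFI1B. The block left the GFI1 value close to the first fit and lowered the standard error of GFI1B from 0.49 to 0.24. For PLDLS vs EV it gave -0.98 ± 0.21 and 1.56 ± 0.23. In neither contrast did any of the alternatives tried turn the sign of GFI1 or GFI1B.

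Per length, GFI1B stood well above GFI1 in both PLDLS libraries, and at 0.369 to 1.24 times GFI1 in the PLASS and EV libraries. GFI1 was at 23.4 and 21.9 TPM in PLDLS, 45.4 and 53.8 in PLASS and 60.9 and 31.9 in EV. GFI1B was at 130 and 87.1 TPM in PLDLS, 56.2 and 19.9 in PLASS and 61.0 and 26.4 in EV. The GFI1B to GFI1 ratio of TPM was 5.56 and 3.97 in PLDLS, 1.24 and 0.369 in PLASS and 1.00 and 0.827 in EV. Its mean was 4.77 ± 1.13 in PLDLS, 0.804 ± 0.614 in PLASS and 0.914 ± 0.123 in EV (SD, n = 2). Among the 14631 tested genes ordered by TPM, GFI1B stood at places 1236 and 2196 in PLDLS and between 3390 and 7305 elsewhere. GFI1 stood at places 6925 and 7124 in PLDLS and between 3470 and 5417 elsewhere.

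**Figure D2:**
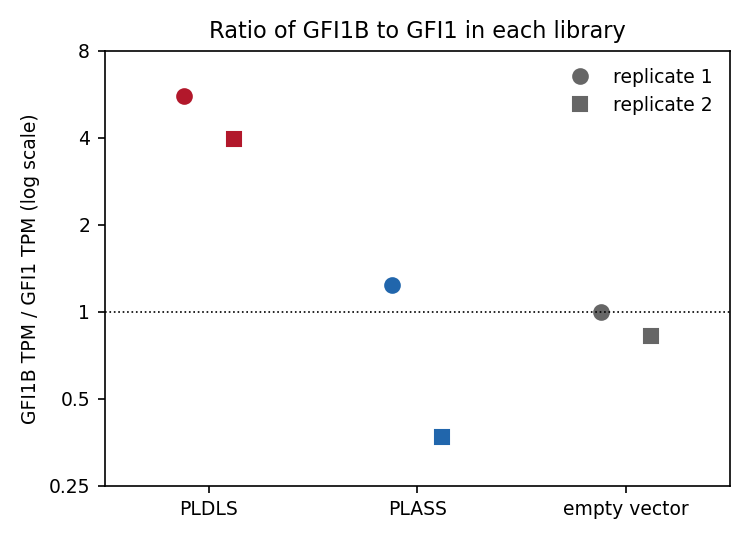
Ratio of GFI1B TPM to GFI1 TPM in each library (vertical axis, log scale), with circles for replicate 1, squares for replicate 2 and a dotted line where both genes are level. Both PLDLS libraries lie at 3.97 and 5.56, and the other 4 lie between 0.369 and 1.24.

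The estimated GFI1B transcripts differed in how far PLDLS stood from the rest. The long transcript, which carries the skipped exon, was at 84.8 and 64.3 TPM in PLDLS, 31.9 and 9.50 in PLASS and 34.0 and 13.6 in EV. Every PLDLS value lay above those of the other groups. The short transcript was at 45.5 and 22.8 TPM in PLDLS, 24.3 and 10.4 in PLASS and 27.0 and 12.8 in EV. Here PLDLS 2 lay within the range of the controls, while PLDLS was above both other groups within each replicate number. The short transcript held 24.9% and 18.4% of the gene's reads in PLDLS, 32.0% and 40.5% in PLASS and 33.1% and 36.7% in EV. The PLDLS shares did not overlap those of the other groups. They rest on 487 gene reads in PLDLS 2 and 215 in PLASS 2, the lowest and the highest share. Salmon divides reads between both models at the skipped exon and at the 5′ exons together. A model with the proximal start and the exon was not in the tables, so the share does not separate start choice from exon skipping. These shares come from the libraries in which GFI1B was selected and were not tested.

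Salmon gave reads to all 3 GFI1 starts in every library. The transcripts share nearly all later sequence, so only reads in their first exons (58, 151 and 220 bases in GENCODE) tell them apart. The shares below are thus mostly Salmon's division of shared reads. In PLDLS 2 they rest on 228 gene reads, and they were not tested. The upstream start held the fewest reads, from 1.74% in PLASS 1 to 10.3% in PLDLS 2. The middle start held 53.1% and 59.3% in PLDLS, 53.6% and 52.4% in PLASS and 46.8% and 41.6% in EV. The downstream start held 38.9% and 30.3% in PLDLS, 44.7% and 43.9% in PLASS and 47.6% and 50.5% in EV. In TPM the downstream start was at 8.96 and 6.52 in PLDLS and between 15.9 and 28.5 in the other 4 libraries. The middle start was at 12.6 and 13.2 TPM in PLDLS, next to 13.5 in EV 2 and below 24.7 and 28.7 in PLASS.

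**Figure D3:**
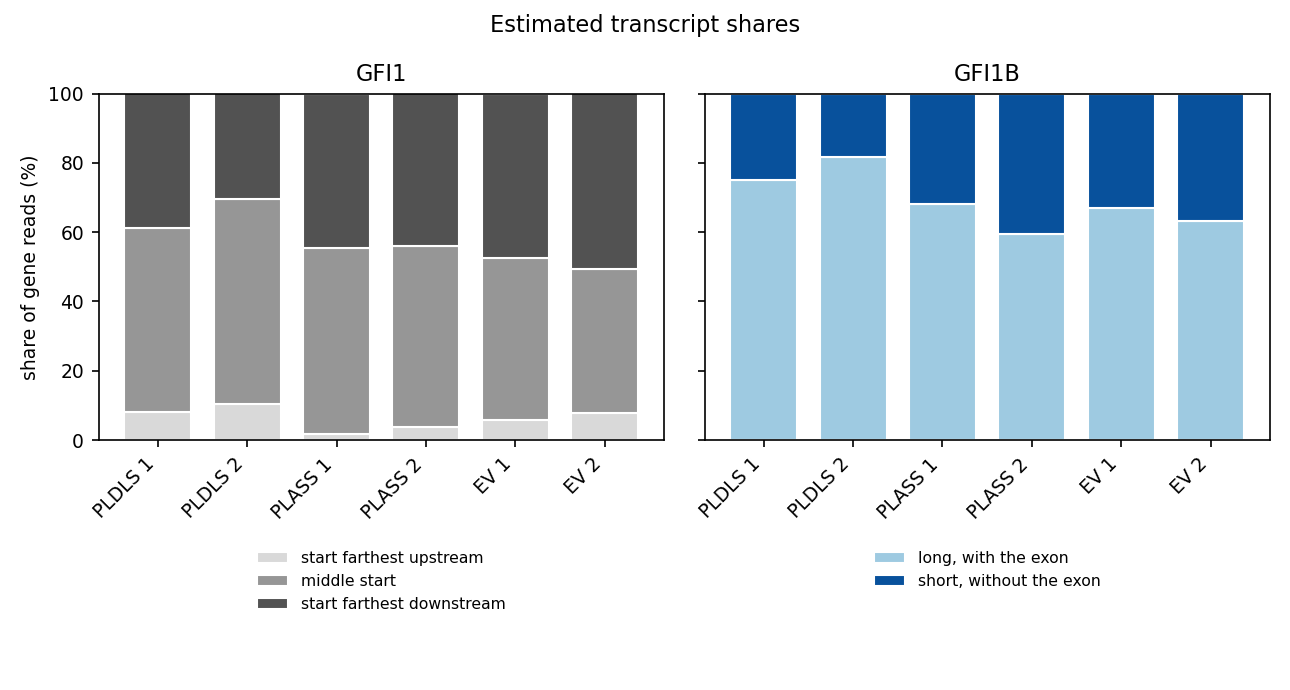
Share of each gene's estimated reads (vertical axis, percent) that Salmon gave to the 3 GFI1 transcripts (left) and the 2 GFI1B transcripts (right) in each library. The short GFI1B transcript takes 18.4% and 24.9% in PLDLS and 32.0% to 40.5% elsewhere.

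The replicate number is a contrast that the selection of the genes did not use. It was tested for number 2 vs 1 over all 3 groups with a term for each group. Within every group the number 2 library held fewer reads, so number and depth cannot be told apart in this contrast. Of the 14631 tested genes 17.5% were called at an adjusted p under 0.05 (edgeR), 7.87% higher and 9.67% lower in number 2. GFI1B was lower in number 2 by 0.93 ± 0.19 on the log2 scale (edgeR adjusted p = 0.0163). It was lower in all 3 groups, with differences of -0.38 in PLDLS, -1.52 in PLASS and -0.94 in EV. The PLASS pair carried much of it. Without PLASS 1 the difference was -0.66 (edgeR adjusted p = 0.0608) and without PLASS 2 -0.65 (adjusted p = 0.0528). Without both EV libraries, whose vectors differ, it was -0.92 (adjusted p = 0.0029).

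GFI1 differed by -0.13 ± 0.17 between the numbers (edgeR adjusted p = 0.589). It was lower in number 2 in PLDLS (-0.04) and EV (-0.62) and higher in PLASS (0.28). Leaving out EV 1, EV 2 or both turned the sign, to 0.14, 0.15 and 0.14. The adjusted p ranged from 0.302 to 0.708 over the alternatives for GFI1 and from 1.05e-04 to 0.0608 for GFI1B.

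The corepressors through which both proteins act showed no called change in PLDLS vs PLASS. KDM1A, the demethylase of the complex, was at 135 and 165 CPM in PLDLS, 139 and 167 in PLASS and 160 and 185 in EV. The scaffold RCOR1 was at 311 and 303 CPM in PLDLS, 280 and 315 in PLASS and 258 and 298 in EV. Both sets of values overlapped between PLDLS and PLASS. In PLDLS vs PLASS, edgeR called 0% of all tested genes without the block, although 721 had an unadjusted p under 0.05 and DESeq2 called 118. With the block edgeR called 297 genes, 2.03% of those tested, 1.52% higher and 0.513% lower. There 1684 of the 14631 tested genes had an unadjusted p under 0.05. Of 25 listed partners of GFI1, 24 passed the expression filter. None was called in either fit or by DESeq2, and 0 had an unadjusted p under 0.05. Their median log2 difference was -0.07 with the block, beside -0.006 for all tested genes.

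Among these partners the smallest p values belonged to CBFA2T3, PIAS3, HDAC1 and AJUBA. CBFA2T3, an ETO family corepressor, differed by -0.18 ± 0.13 with the block and PIAS3, a SUMO ligase that binds GFI1, by -0.26 ± 0.18. HDAC1, a histone deacetylase, differed by -0.16 ± 0.12 and AJUBA, a LIM adaptor, by -0.43 ± 0.37. Adjusted p values of these 4 were 0.712 to 0.797 (edgeR). CTBP1 and CTBP2, the corepressors that the peptide addresses and that are also listed as partners, differed by -0.06 ± 0.13 and 0.04 ± 0.14.

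Other SNAG domain proteins were mostly silent. SNAI2 was at 0 in all libraries, and SCRT1, SCRT2, INSM1 and INSM2 did not pass the filter. SNAI3, a Snail family repressor, was at 32.8 and 66.6 CPM in PLDLS, 21.0 and 29.1 in PLASS and 15.2 and 13.8 in EV. No PLDLS value fell into the range of the other groups. It differed by 0.93 ± 0.25 in PLDLS vs PLASS (edgeR with block, adjusted p = 0.124), which was not called. It was called without EV 1, EV 2 or PLDLS 1, and by DESeq2 with the block. In PLDLS vs EV it was higher by 1.67 ± 0.25 (edgeR with block, adjusted p = 0.00874). In that comparison 2 genes, 0.0137%, were called without the block and 621, 4.24%, with it, 3.24% higher and 1% lower. Unadjusted p values under 0.05 (edgeR) numbered 1047 of 14631 without the block and 2327 with it. SNAI1 was at 3.95 and 7.42 CPM in PLDLS, 1.92 and 4.70 in PLASS and 1.53 and 4.37 in EV. The groups overlap, while PLDLS was above both other groups within each number. With the block SNAI1 differed by 0.86 ± 0.27 in PLDLS vs PLASS and by 1.08 ± 0.26 in PLDLS vs EV (edgeR adjusted p = 0.191 and 0.0571). Against EV it was called with the block and no expression filter. Without the block edgeR called neither SNAI3 nor SNAI1 against EV, 1 had an unadjusted p under 0.05 and DESeq2 called 1.

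Genes reported elsewhere as repressed by GFI1 or GFI1B moved in both directions. Of 26 listed, 22 were tested. With the block 3 rose and 3 fell in PLDLS vs PLASS. Of the 22, 8 had an unadjusted p under 0.05, beside 1684 of all 14631 tested genes. The median difference of the targets was 0.02, beside -0.006 for all tested genes. Without the block none was called. The count with the block fell to 1 without PLASS 1, PLDLS 1 or PLDLS 2 and to 2 without PLASS 2. DESeq2 with the block called 4.

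IRF8, a transcription factor of monocytes and dendritic cells, was at 0.479 and 0.557 CPM in PLDLS, 2.40 and 4.30 in PLASS and 1.61 and 4.14 in EV. All 4 control values were above both PLDLS values, which rest on few reads. It fell by 2.50 ± 0.42 on the log2 scale in PLDLS vs PLASS (edgeR with block, adjusted p = 0.0223). IL7R, the receptor of interleukin 7, was at 89.6 and 34.1 CPM in PLDLS, 190 and 108 in PLASS and 149 and 115 in EV. It fell by 1.32 ± 0.21 (edgeR with block, adjusted p = 0.0201). CSF1, a macrophage growth factor, was at 0.539 and 1.67 CPM in PLDLS, 1.49 and 6.89 in PLASS and 0.790 and 3.98 in EV. It fell by 1.77 ± 0.35 in PLDLS vs PLASS (edgeR with block, adjusted p = 0.0448), and was named after its value was seen.

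RGS18, a regulator of G protein signalling in platelets and their precursors, was at 53.1 and 20.2 CPM in PLDLS, 20.9 and 8.35 in PLASS and 17.2 and 12.8 in EV. PLDLS 2 lay just below PLASS 1, and PLDLS was higher within each number. It rose by 1.32 ± 0.25 (edgeR with block, adjusted p = 0.0347). HOXA9, a stem cell homeobox factor, was at 159 and 74.0 CPM in PLDLS, 106 and 40.0 in PLASS and 127 and 45.6 in EV. It rose by 0.73 ± 0.14 in PLDLS vs PLASS (edgeR with block, adjusted p = 0.0388). HOXA9 libraries of number 2 were below those of number 1 in every group, so its groups overlap outside the block.

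CEBPE, a factor of late granulocyte formation, was at 6.11 and 7.05 CPM in PLDLS, 2.55 and 2.76 in PLASS and 2.34 and 2.21 in EV. It rose by 1.30 ± 0.25 (edgeR with block, adjusted p = 0.0396). DESeq2 with the block gave it an adjusted p of 0.107. Against EV, 6 of the 22 targets rose and 2 fell with the block, and the median was 0.37, beside -0.02 for all tested genes. With the block 14 targets had an unadjusted p under 0.05 (edgeR), beside 2327 of all 14631 tested genes. Without the block edgeR called 0 of them and DESeq2 called 1. In that edgeR fit 11 had an unadjusted p under 0.05, beside 1047 of all 14631 tested genes. The count of 8 became 14 without EV 1, 12 without PLASS 1 or PLASS 2, 4 without PLDLS 2 and 2 without PLDLS 1. CDKN1A, ID1 and ID2 were among those that rose, by 0.77 ± 0.18, 0.89 ± 0.20 and 1.32 ± 0.18. The same genes differed by 0.73 ± 0.18, 0.98 ± 0.20 and 1.42 ± 0.18 in PLASS vs EV. There edgeR with the block called none of the 3, and DESeq2 with the block called all 3 higher. They are a cell cycle inhibitor and 2 inhibitors of helix-loop-helix factors, and were named after their values were seen. In PLDLS vs PLASS they differed by 0.04 ± 0.18, -0.10 ± 0.20 and -0.10 ± 0.18. In PLASS vs EV, 0% of tested genes were called without the block, where 101 had an unadjusted p under 0.05 and DESeq2 called 3, and 0.0137% with it.

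**Figure D4:**
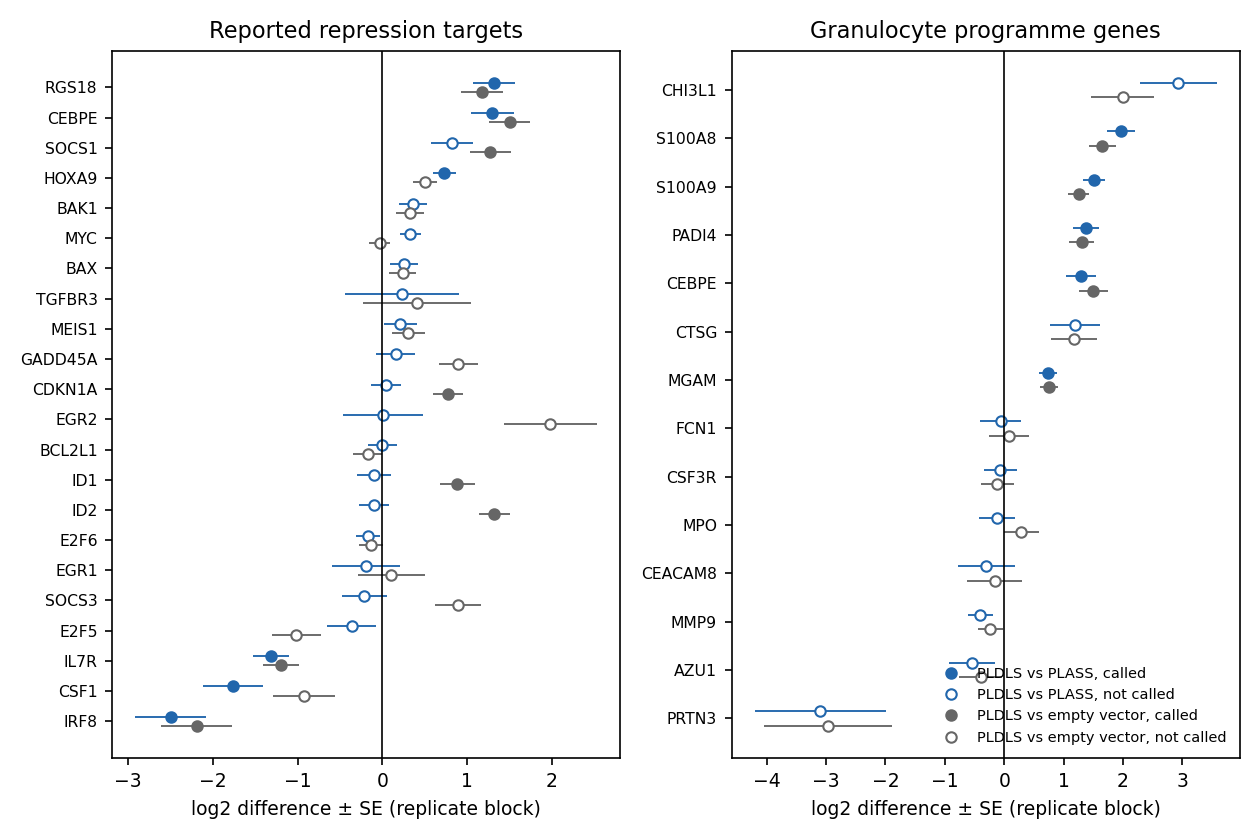
Log2 differences ± SE (horizontal axis, edgeR with the replicate block) of the 22 tested repression targets (left) and the 14 tested granulocyte genes (right) in PLDLS vs PLASS (blue) and PLDLS vs EV (grey), which share the PLDLS libraries. Filled points were called at an adjusted p under 0.05, and the targets spread to both sides from IRF8 at -2.50 to RGS18 at 1.32 in PLDLS vs PLASS.

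Genes known to rise in myeloid leukaemia cells when LSD1 is inhibited were not called in PLDLS vs PLASS. Of 5 listed, 4 were tested and 2 had an unadjusted p under 0.05 with the block, beside 1684 of all 14631 tested genes. S100A12, a calcium-binding protein of granulocytes, was at 1.50 and 3.15 CPM in PLDLS, 0.481 and 0.649 in PLASS and 0.922 and 1.49 in EV. It differed by 1.92 ± 0.42 (edgeR with block, adjusted p = 0.0613). ITGAM, the integrin CD11b, was at 35.0 and 37.7 CPM in PLDLS, 26.2 and 17.2 in PLASS and 26.8 and 14.0 in EV. It differed by 0.77 ± 0.24 (adjusted p = 0.195). CD86, a costimulatory receptor, and VCAN, a matrix proteoglycan, differed by 0.24 ± 0.25 and -0.33 ± 0.24. When EV 1 or EV 2 was left out, 2 of the 4 were called with the block.

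Granulocyte genes, the programme tied to GFI1, rose in part. Of 19 listed, 14 were tested, 5 rose and none fell in PLDLS vs PLASS with the block. Among all tested genes 1.52% were called higher and 0.513% lower. An unadjusted p under 0.05 (edgeR with block) was found for 8 of the 14, beside 1684 of all 14631 tested genes. Of the 14, 7 had a difference above 0. Their median difference was 0.34, beside -0.006 for all tested genes. That median falls in a gap between -0.06 (FCN1) and 0.74 (MGAM), so it describes no single member. S100A8 and S100A9, the subunits of calprotectin, rose by 1.96 ± 0.24 and 1.51 ± 0.18 (edgeR with block, adjusted p = 0.00853 for each). S100A8 was at 18.4 and 50.7 CPM in PLDLS, 6.39 and 9.41 in PLASS and 6.11 and 15.5 in EV. S100A9 was at 53.2 and 87.4 CPM in PLDLS, 20.4 and 27.7 in PLASS and 19.5 and 41.6 in EV. In both genes every PLDLS value was above the controls. PADI4, a histone-modifying enzyme of neutrophils, was at 49.1 and 59.7 CPM in PLDLS and between 17.6 and 26.2 CPM in the other libraries. It rose by 1.38 ± 0.21 (edgeR with block, adjusted p = 0.0179). MGAM, named after its value was seen, and CEBPE completed the 5. Without the block none was called by edgeR and 3 by DESeq2, and leaving out a PLDLS or PLASS library left 2 or 3 called with the block.

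Enzymes of the primary granules were not among the called genes. ELANE, a reported target of GFI1, did not pass the filter. MPO, the granule peroxidase, differed by -0.12 ± 0.30 in PLDLS vs PLASS with the block. AZU1 differed by -0.54 ± 0.38. PRTN3 was at no more than 1.14 CPM in any library. CTSG, the protease cathepsin G, differed in the other direction, by 1.19 ± 0.42 (edgeR with block, adjusted p = 0.274). Its level was 2.58 and 0.928 CPM in PLDLS, 1.11 and 0.406 in PLASS and 1.26 and 0.276 in EV. These 4 were named after their values were seen. Against EV the same number of granulocyte genes, 5 of 14, rose with the block, and 3 were called when either PLDLS library was left out. With the block 8 of the 14 granulocyte genes had an unadjusted p under 0.05 against EV, beside 2327 of all 14631 tested genes. Of all tested genes 3.24% were called higher there. Without the block edgeR called 0 of the granulocyte genes against EV and DESeq2 called 2. In that edgeR fit 6 had an unadjusted p under 0.05, beside 1047 of all 14631 tested genes.

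Red cell and platelet genes, the programme tied to GFI1B, were mostly low. Of 24 listed, 15 were tested and 1 was called in PLDLS vs PLASS with the block, beside 2.03% of all tested genes. An unadjusted p under 0.05 (edgeR with block) was found for 4 of the 15, beside 1684 of all 14631 tested genes. The called gene was CD36, a scavenger receptor, at 75.5 and 51.0 CPM in PLDLS, 45.1 and 24.0 in PLASS and 49.1 and 23.7 in EV. It rose by 0.91 ± 0.16 (edgeR with block, adjusted p = 0.0319), and was not called when any 1 PLDLS or PLASS library was left out. NFE2, a factor of platelet release, was at 26.4 and 22.3 CPM in PLDLS, 15.5 and 5.35 in PLASS and 24.4 and 7.40 in EV. It differed by 1.36 ± 0.33 (edgeR with block, adjusted p = 0.0930), and was called without EV 1, EV 2 or PLDLS 1. ITGA2B, the platelet integrin CD41, was at 140 and 200.4 CPM in PLDLS and between 104 and 140 CPM elsewhere, where EV 1 was level with PLDLS 1, with a difference of 0.54 ± 0.19 (adjusted p = 0.271). HBD, a minor adult globin, reached 1.30 CPM in PLDLS 2 and was at 0 in PLASS 2. Several defining genes were near absent. HBB, HBA1 and PF4 were at 0 in every library, and KLF1 reached 0.249 TPM. GATA1, listed with the stem cell factors below, was low but present at 3.27 to 5.88 TPM. TFRC was the highest member of the red cell and platelet list, at 500 to 603 TPM. The median of the list was 0.31 in PLDLS vs PLASS with the block, beside -0.006 for all tested genes. Against EV 1 of the 15 was called with the block, again CD36, beside 4.24% of all tested genes. There 5 had an unadjusted p under 0.05, beside 2327 of all 14631 tested genes.

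The listed blood stem cell transcription factors were all tested, 15 of 15. With the block CEBPA was the 1 called in PLDLS vs PLASS, beside 2.03% of all tested genes. An unadjusted p under 0.05 (edgeR with block) was found for 6 of the 15, beside 1684 of all 14631 tested genes. CEBPA, a driver of granulocyte and monocyte fate, was at 163 and 235 CPM in PLDLS, 74.9 and 70.0 in PLASS and 116 and 87.5 in EV. It rose by 1.45 ± 0.21 (edgeR with block, adjusted p = 0.0126), and was called in all 11 fits with the block. TAL1, which forms a complex with LMO2, was at 488 and 388 CPM in PLDLS and between 252 and 312 CPM elsewhere. It differed by 0.64 ± 0.13 (edgeR with block, adjusted p = 0.0544). LMO2 was at 17.0 and 23.9 CPM in PLDLS and between 32.6 and 41.6 CPM elsewhere, with a difference of -0.88 ± 0.18 (adjusted p = 0.0521). MYB, a factor of proliferating progenitors, was at 151 and 76.1 CPM in PLDLS, 280 and 136 in PLASS and 283 and 247 in EV, and differed by -0.86 ± 0.20 (adjusted p = 0.0859). DESeq2 with the block called 4 of the 15, and without EV 1 or EV 2 edgeR called 5.

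Against EV, 3 of the 15 rose and 2 fell with the block, beside 3.24% higher and 1% lower among all tested genes. In that fit 6 of the 15 had an unadjusted p under 0.05 (edgeR), beside 2327 of all 14631 tested genes. The count of 5 fell to 3 without PLDLS 1 and to 2 without PLDLS 2. Without the block edgeR called 0 and DESeq2 called 2. In that edgeR fit 6 had an unadjusted p under 0.05, beside 1047 of all 14631 tested genes. LMO2 fell by 0.94 ± 0.18 and MYB by 1.31 ± 0.21 (edgeR adjusted p = 0.0246 and 0.0105). MECOM rose by 2.40 ± 0.15 in PLDLS vs EV, and it was also called higher in PLASS vs EV (edgeR with block, adjusted p = 0.00563). It was at 605 and 519 CPM in PLDLS, 531 and 342 in PLASS and 129 and 88.2 in EV, and was named after its values were seen. Its PLDLS vs PLASS difference was 0.40 ± 0.14 (edgeR with block, adjusted p = 0.295).

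Among the line's own markers edgeR called none in PLDLS vs PLASS with the block, while DESeq2 with the block called 1. Of these 10, 3 had an unadjusted p under 0.05 (edgeR with block), beside 1684 of all 14631 tested genes. ANPEP, the myeloid surface enzyme CD13, was at 518 and 481 CPM in PLDLS and between 229 and 334 CPM elsewhere. It differed by 0.62 ± 0.15 (edgeR with block, adjusted p = 0.0868) and rose by 0.87 ± 0.15 in PLDLS vs EV (adjusted p = 0.0139). KIT, the stem cell factor receptor, fell by 0.72 ± 0.14 in PLDLS vs EV (adjusted p = 0.0215). Neither call against EV held without PLDLS 1, without PLDLS 2 or in the edgeR fit with the filter and no block.

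The 3 nearest tested genes on each side of GFI1 were BTBD8, GLMN, RPAP2, EVI5, RPL5 and DIPK1A. Their PLDLS vs PLASS differences lay between -0.42 and -0.002 with the block, beside -1.15 for GFI1. Those of GFI1B were GTF3C4, SPACA9, TSC1, SNORD141A, GTF3C5 and CEL, with differences from -0.48 to 0.74 beside 1.76 for GFI1B. None of the 12 was called in PLDLS vs PLASS in either fit or under any alternative tried. In number 2 vs 1, TSC1 (-1.11 ± 0.11), CEL (-1.82 ± 0.27) and RPAP2 (-0.59 ± 0.10) were called lower. Their edgeR adjusted p values were 0.0015, 0.0058 and 0.0080, and 17.5% of all tested genes were called in that contrast.

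Genes with a pattern most like that of GFI1 or GFI1B were ranked by Pearson correlation of log2 CPM over the 6 libraries, among 12074 genes with a mean of at least 2 CPM. The libraries differ in depth and replicate number, and PLDLS stands apart from the rest, so these coefficients describe 6 points and carry no p. LOC283683, CRAT, carnitine acetyltransferase, GNG7, a G protein subunit, and FOXN3, a forkhead repressor, were most like GFI1, with coefficients of 0.998, 0.996, 0.994 and 0.993. CRAT was at 5.09 and 5.01 CPM in PLDLS, 6.68 and 7.54 in PLASS and 7.29 and 6.24 in EV. GNG7 was at 7.69 and 7.42 CPM in PLDLS and between 11.4 and 15.1 CPM elsewhere. ITM2A, a membrane protein, ATG16L1, an autophagy protein, TMEM248 and IRS1, the insulin receptor substrate, ran opposite to GFI1, from -0.991 to -0.984. ITM2A was at 298 and 279 CPM in PLDLS and between 85.2 and 161 CPM elsewhere. A coefficient does not show the size of a shift, which was small in some of these genes. TMEM248 was at 134 and 135 CPM in PLDLS and between 122 and 127 CPM elsewhere. FOXN3 was at 224 and 216 CPM in PLDLS and between 241 and 266 CPM elsewhere.

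KIAA0825, CNR2, a cannabinoid receptor, RELCH and IGFLR1, a receptor of an insulin-like ligand, were most like GFI1B, from 0.997 to 0.990. CNR2 was at 47.3 and 43.6 CPM in PLDLS, 32.8 and 17.6 in PLASS and 31.9 and 24.2 in EV. TTYH2, HINT3, LINC01515 and IL4I1, an amino acid oxidase of immune cells, ran opposite to it, from -0.996 to -0.994. IL4I1 was at 1.33 and 1.43 CPM in PLDLS, 3.08 and 7.14 in PLASS and 3.15 and 5.14 in EV. After subtracting the mean of each replicate number, 5 of these 16 genes stayed among the 4 most like or most opposite.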

How the data were processed

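Poly-A RNA of MUTZ3 was sequenced in 6 non-stranded libraries, 2 per group. Reads from the strand opposite a gene therefore count towards it. Per the submitters' processing notes, the authors ran bcl2fastq 1.8.4 and Salmon 0.3.1 against hg38. The release of the annotation is not given in the sources used here. The deposited estimated counts are Salmon's reads per RefSeq transcript, not normalized, as the file headers give them. TPM in the deposited tables, scaled by the authors' Salmon run for length and library size, was summed per gene. The deposited effective length served only as an offset and in 1 ratio.

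Transcripts numbered 69004 per table, of which 68201 were named from RefSeq (GRCh38.p14) and 404 from GENCODE. The 399 left without a name held 0.0670% to 0.0891% of reads and were dropped. Within a group, replicate counts differed far beyond sampling noise (chi-square per gene 18.3 to 79.8).

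Gene sums were rounded and fitted with edgeR 4.0.16 (R 4.3.3) by quasi-likelihood with TMM scaling and filterByExpr, all libraries together. Calls used a Benjamini-Hochberg adjusted p under 0.05 over 14631 genes. The first fit had no block and 3 residual degrees of freedom. Table names give experiment numbers that match the replicate numbers, and no label states a shared day. Deviations of same-numbered libraries correlated at 0.683, 0.533 and 0.605 between the groups. The pairing was thus inferred from the experiment numbers and the data. The paired fit, with the replicate block and 2 residual degrees of freedom, is given beside the first. The biological coefficient of variation was 0.236 in the first fit and 0.130 with the block. Alternatives were DESeq2 1.42.0, its size factors, no filter, effective lengths and leaving out each library, where a lone library was taken to vary like the others. The fits were tested on simulated data.

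The members and the 9 gene lists were chosen with earlier results of these data known. Named genes were both members, up to 4 per list ranked by p between PLDLS and PLASS with the block, the 4 most and 4 least correlated genes for each member, and 3 neighbours on each side.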

Additional observations from a re-analysis of the deposited data

How the results depend on the processing

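Counts of called genes moved far more between fits than the log2 differences of GFI1 and GFI1B. Without the block edgeR called 0 genes in PLDLS vs PLASS, 2 in PLDLS vs EV and 0 in PLASS vs EV. With the replicate block 297 genes were called in PLDLS vs PLASS, 621 in PLDLS vs EV and 2 in PLASS vs EV, and the counts that follow keep this order. Without it DESeq2 called 118, 267 and 3, and no filter gave 240, 471 and 33. With it DESeq2 called 383, 712 and 22, DESeq2 size factors 290, 603 and 2, no filter 588, 1023 and 37, and effective lengths 306, 673 and 2. Effective lengths without the block gave 4 in PLDLS vs EV. Leaving out a library, with or without the block, gave 0 to 1067, 0 to 2143 and 0 to 559. The highest of these came without EV 1 with the block. For number 2 vs 1 the range was 848 to 3057.

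Leaving out a library moved the PLDLS vs PLASS difference of GFI1 between -1.46 and -0.83 and that of GFI1B between 1.05 and 2.58. PLDLS vs EV moved between -1.34 and -0.55 for GFI1, without EV 2 and EV 1. PLASS vs EV ranged from -0.21 to 0.57 for GFI1 and from -1.09 to 0.42 for GFI1B. Number 2 vs 1 ranged from -0.35 to 0.15 for GFI1, which was 0.14 without both EV libraries, and from -1.22 to -0.65 for GFI1B, which lost its call without PLASS 1 or PLASS 2. As a share of TPM, chosen after seeing the data, the short GFI1B transcript held 30.6% in PLDLS, 47.7% in PLASS and 46.4% in EV, so PLDLS stayed lowest. Counts of list members under the alternatives were also added after seeing the data. Single genes crossed the threshold in 136 instances, from a fit that called none of them. Signs of genes not called by either edgeR fit turned in CBFA2T3 (-0.54 to 0.16), AJUBA (-0.97 to 0.049), VCAN (-0.67 to 0.13) and CD86 (-0.26 to 0.62) on leaving out a library. The cause was not tested. Of the 16 genes most like or opposite to the members, 5 kept their place after centring by number.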
